A study of Mus musculus with 30 samples.

Results

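The genes described here are 32 contractile and cytoskeletal genes of smooth muscle, chosen by name for their known roles in that tissue, with earlier results of these data known. All 32 were found among the 55487 gene identifiers of the table, and all 32 passed the filter on low counts that left 15458 genes for testing. They were measured in mouse colon by 3′ tag sequencing of total RNA, which reads 1 end of each transcript, with 5 mice in each of 6 genotypes. The genotypes combine deletion in intestinal epithelial cells (IEC-KO in the labels) of XBP1, a transcription factor of the endoplasmic reticulum stress response, with deletion of caspase-8, a protease that drives apoptosis and restrains necroptosis, and with loss of TNFR1, a receptor for tumour necrosis factor, or MLKL, the protein that breaches the membrane in necroptosis.

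The groups were the TNFR1 triple knockout (XBP1IEC-KO;Casp8IEC-KO;TNFR1IEC-KO), the MLKL triple knockout (XBP1IEC-KO;Casp8IEC-KO;MLKLKO), the double knockout (XBP1IEC-KO;Casp8IEC-KO), the XBP1 single knockout (XBP1IEC-KO), the Casp8 single knockout (Casp8IEC-KO) and WT. Both triple knockouts carry the 2 deletions of the double knockout. The IEC-KO deletions are labelled for the epithelium and not for muscle, whereas the label MLKLKO names no cell type and the design text writes Mlkl-/-. The sources used here do not state the promoter that drives the deletion, nor the strain, age or sex of the mice.

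In smooth muscle, calcium that enters through voltage-gated channels activates myosin light chain kinase, and the phosphorylated myosin then pulls on actin filaments until myosin phosphatase reverses the step. The filaments are anchored in dense bodies inside the cell and in adhesion plaques at its membrane, joined by intermediate filaments of desmin and synemin. Myocardin, a coactivator of serum response factor, turns on many of these genes through a DNA element called the CArG box. In the colon such cells form the muscle coats that move the contents, the thin muscle layer under the mucosa and the walls of vessels.

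Library totals ran between 3516792.6 and 5823059.7 estimated counts, and levels are given as CPM, a gene's reads relative to the normalised size of its library. The rarest member, Myocd, rested on 18 to 71 reads per library, and Acta2 on 2920 to 10150. Sex, read from Xist and Y-linked genes, was uneven: the TNFR1 triple knockout had 4 females and 1 male, the MLKL triple knockout 5 females, the double knockout 1 female and 4 males, each single knockout 3 females and 2 males, and WT 1 female and 4 males. Casp8 had 16.5 to 33.6 CPM in TNFR1 triple, 12.2 to 29.6 CPM in MLKL triple, 21.99 to 46.3 CPM in double and 24.7 to 34.8 CPM in Casp8 single knockouts, all below the 51.5 to 58.7 CPM of WT. Xbp1 was at 52.2 to 109 CPM in TNFR1 triple, 62.6 to 88.1 CPM in MLKL triple, 70.4 to 139.5 CPM in double and 51.1 to 65.2 CPM in XBP1 single knockouts, against 52.8 to 100.1 CPM in WT, so 3 of 5 double knockouts, which are labelled as lacking it in the epithelium, exceeded every WT colon. Tnfrsf1a was at 52.4 to 75.4 CPM in TNFR1 triple knockouts and 65.0 to 78.9 CPM in WT. Tags of both genes may lie outside the deleted parts and then check nothing. In 3 libraries, called in doubt below, a targeted gene or the library as a whole went against the rest. The library labelled XBP1 single knockout replicate 2 had 21.1 CPM of Casp8, below the 24.7 to 34.8 CPM of the Casp8 single knockouts; the library labelled MLKL triple knockout replicate 5 had 10.7 CPM of Mlkl, above the 5.72 to 9.89 CPM of WT; and double knockout replicate 1 had 10.3% mitochondrial reads, the least of all 30 libraries. TNFR1 triple knockout replicate 1, not counted among these 3, was the highest of its group in all 4 targeted genes. It had 109 CPM of Xbp1, 33.6 CPM of Casp8, 75.4 CPM of Tnfrsf1a and 30.2 CPM of Mlkl. The rest of its group had 52.2 to 62.9, 16.5 to 23.9, 52.4 to 61.5 and 6.80 to 11.3 CPM in that order. Tissue RNA gives a gene's share of all RNA, so fewer muscle cells and less RNA per muscle cell cannot be told apart.

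Taken as a sum, the 32 genes were lowest in the double knockout and highest in WT, with the triple and single knockouts between them. The sum was 8908, 13530, 16140, 12610 and 14060 CPM in TNFR1 triple knockouts. It was 12540, 12900, 11840, 13150 and 11570 CPM in MLKL triple knockouts. It was 9021, 10670, 8229, 7448 and 8524 CPM in double knockouts. All 5 double knockouts therefore lay below all 5 MLKL triple knockouts, while TNFR1 triple knockout replicate 1 fell among the double knockouts and the other 4 of its group lay above them.

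The XBP1 single knockouts had 16110, 10670, 15690, 15930 and 13410 CPM, the Casp8 single knockouts 13950, 15430, 16520, 10510 and 17110 CPM, and WT 19690, 18580, 17130, 20220 and 15090 CPM. The lowest WT colon stood above every double knockout and MLKL triple knockout, and below the highest of the TNFR1 triple and of both single knockouts. As a percentage of the normalised library size the sum averaged 1.31% ± 0.265, 1.24% ± 0.0680 and 0.878% ± 0.120 in the TNFR1 triple, MLKL triple and double knockouts (SD, n = 5 each). It averaged 1.44% ± 0.234 and 1.47% ± 0.264 in the XBP1 and Casp8 single knockouts, and 1.81% ± 0.208 in WT (SD, n = 5 each). In order of the mean the levels ran double, MLKL triple, TNFR1 triple, XBP1 single, Casp8 single, WT, and after the first step each neighbour in that order overlapped the next. In the groups with both sexes well represented, males had 15930 and 16110 CPM in the XBP1 single knockout, against 10670 to 15690 CPM in 3 females, and 15430 and 17110 CPM in the Casp8 single knockout, against 10510 to 16520 CPM in 3 females. The only female WT colon, at 17130 CPM, and the only female double knockout, at 8229 CPM, lay within the range of the males of their groups. The only male TNFR1 triple knockout, at 16140 CPM, lay above the 4 females of its group, at 8908 to 14060 CPM.

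**Figure D1:**
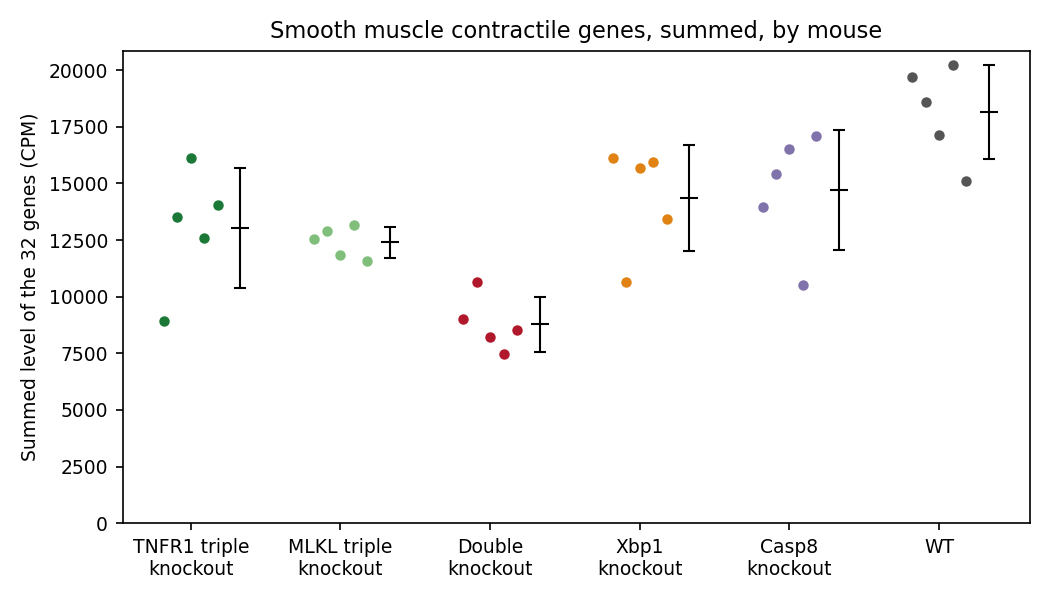
Summed level of the 32 smooth muscle contractile genes (CPM) in each mouse, by genotype, with the mean and SD of each group beside the points (n = 5 mice each). Double knockouts lie between 7448 and 10670 CPM, below all WT colons, which lie between 15090 and 20220 CPM.

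The double knockout against WT asks what the loss of both epithelial genes does together. In the double knockout 30 of the 32 genes fell and none rose (edgeR quasi-likelihood test, Benjamini-Hochberg adjusted p under 0.05), where 10.2% of all genes tested were called lower. The median log2 fold change of the 32 was -1.02, against 0.01 over all genes. For 28 of the 32 the highest double knockout lay below the lowest WT colon, where 6.66% of all genes did so. By role, all 9 genes of the actin filament, all 5 of myosin and its phosphorylation, 10 of 12 of dense bodies and adhesion, all 4 of ions and calcium and both regulators fell. Both groups hold 1 female and 4 males.

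Among genes of the thin filament, Acta2 encodes smooth muscle alpha-actin, shared with vessels and myofibroblasts, and lies at chr19:34241090-34255590 (GRCm38). Acta2 had 1197, 1189, 997, 722 and 1069 CPM in double knockouts, against 2144, 2047, 2083, 2144 and 1518 CPM in WT. Every double knockout was below every WT colon, and the log2 fold change was -0.94 ± 0.16 (SE, adjusted p = 1.40e-04). Actg2, the gamma-actin typical of gut muscle (chr6:83512905-83536265), had 562, 517, 334, 304 and 411 CPM in double knockouts, against 832, 773, 873, 896 and 618 CPM in WT. These did not overlap either, and the change was -0.91 ± 0.20 (SE, adjusted p = 0.00132). The 2 actins are close paralogs and no source used here says how shared reads were divided between genes, so their split is uncertain.

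Caldesmon (Cald1), which lies along actin and slows the myosin motor, had 417, 544, 427, 438 and 397 CPM in double knockouts, against 1012, 915, 829.9, 1024 and 719 CPM in WT, a change of -1.02 ± 0.13 (SE, adjusted p = 3.02e-06). Tropomyosin 1 (Tpm1), the coiled strand that gates access of myosin to actin, had 936, 1233, 1166, 933 and 1127 CPM in double knockouts, against 2271, 2313, 1933, 2400 and 1773 CPM in WT, a change of -0.99 ± 0.12 (SE, adjusted p = 4.02e-06). Both groups were separate for both genes, with double knockout replicate 2 the highest of its group. Calponin (Cnn1), another brake on the actin-activated motor, changed by -1.002 ± 0.15, smoothelin (Smtn), a marker of contractile cells, by -0.96 ± 0.14, leiomodin (Lmod1), which nucleates actin filaments, by -1.08 ± 0.16, and Tpm2 by -0.83 ± 0.15 (log2, SE). Transgelin (Tagln), an actin bundling protein and early smooth muscle marker, had 138, 374, 221, 305 and 212 CPM in double knockouts, against 549, 433, 428, 545 and 331 CPM in WT. Tagln passed the test with -0.87 ± 0.21 (SE, adjusted p = 0.00373), yet its groups overlapped, since double knockout replicate 2 was above WT replicate 5.

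Among genes of the motor, Myh11, the smooth muscle myosin heavy chain (chr16:14194535-14291372), had 776, 1167, 790.1, 799.9 and 908 CPM in double knockouts, against 2360, 2090, 1617, 2218 and 1598 CPM in WT. Mylk, the myosin light chain kinase, had 896, 1175, 971, 619 and 824 CPM in double knockouts, against 2457, 2465, 2182.1, 2677 and 2157 CPM in WT. Neither gene's groups overlapped, and the changes were -1.15 ± 0.18 (SE, adjusted p = 5.13e-05) for Myh11 and -1.41 ± 0.17 (SE, adjusted p = 3.02e-06) for Mylk, which left the double knockout at 37.6% of WT. Tags at the end of Mylk cannot separate the kinase from telokin, a short product of the same 3′ end. Ppp1r12b, a myosin-targeting subunit of the phosphatase, had 62.5, 70.1, 63.8, 49.96 and 59.9 CPM in double knockouts, against 151, 147, 126, 121 and 123 CPM in WT, again without overlap and with a change of -1.13 ± 0.14 (SE, adjusted p = 4.74e-06). Myl9, the regulatory light chain that the kinase phosphorylates, changed by -1.06 ± 0.20 and Ppp1r14a, an inhibitor of the phosphatase known as CPI-17, by -0.82 ± 0.18 (log2, SE). The kinase, its substrate, the phosphatase subunit and the phosphatase inhibitor all fell.

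Among genes of dense bodies, filaments and adhesion, desmin (Des, chr1:75360329-75368579) and the integrin gene Itga7 had the lowest fold changes of the 32. Des had 306, 359, 271, 178 and 254 CPM in double knockouts, against 865, 777, 738, 875 and 689 CPM in WT. Every double knockout was below every WT colon, the change was -1.53 ± 0.20 (SE, adjusted p = 6.97e-06), and the double knockout stood at 34.7% of WT. Synemin (Synm), its partner in the intermediate filament, changed by -1.31 ± 0.18, and Itga7, an integrin that binds laminin, had 16.7, 10.996, 7.77, 5.44 and 7.06 CPM in double knockouts, against 23.8, 29.6, 26.4, 23.997 and 34.9 CPM in WT. Itga7 changed by -1.50 ± 0.21 (SE, adjusted p = 1.71e-05), and its last 9 bases overlap Mettl7b on the opposite strand, which had 5.61 CPM in double knockouts, against 52.1 CPM in WT. Reads of those 2 genes cannot be told apart where they overlap, because no source used here gives the strand setting of the counting. Pgm5, also called aciculin, a protein of adhesion plaques, had 65.4, 88.5, 72.5, 63.1 and 75.4 CPM in double knockouts, against 174, 173, 157, 187 and 149 CPM in WT, without overlap and with a change of -1.20 ± 0.14 (SE, adjusted p = 1.91e-06).

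The falls of the remaining members of the dense body group were smaller. Synpo2, an actin-binding protein of Z-discs and dense bodies, changed by -1.11 ± 0.16, Csrp1, a LIM protein of actin bundles, by -0.85 ± 0.14, nexilin (Nexn) by -0.79 ± 0.15, filamin A (Flna), a crosslinker made in most cell types, by -0.71 ± 0.13, Pdlim3 by -0.69 ± 0.18 and Pdlim7 by -0.67 ± 0.13 (log2, SE). Pdlim3 passed the test with an adjusted p of 0.00615 although double knockout replicate 2, at 163 CPM, exceeded WT replicate 5, at 133 CPM.

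Vinculin and Ldb3 were the 2 members that did not pass. Vinculin (Vcl), which ties integrins to actin in many cell types, had 68.2, 85.4, 57.4, 57.9 and 50.6 CPM in double knockouts, against 70.9, 61.2, 63.0, 74.1 and 55.1 CPM in WT. Ldb3, a PDZ-LIM protein of the Z-disc best known from striated muscle, had 7.68, 13.3, 14.5, 19.5 and 7.97 CPM in double knockouts, against 15.6, 12.3, 17.9, 15.8 and 9.36 CPM in WT. The ranges overlapped widely for both, with log2 differences of -0.02 ± 0.11 (SE, adjusted p = 0.907) for Vcl and -0.19 ± 0.22 (SE, adjusted p = 0.581) for Ldb3, whose reads vary more between mice. The last 1000 bases of Vcl lie wholly over Ap3m1 on the other strand, a gene at 86.3 CPM in double knockouts and 79.2 CPM in WT, so part of the reads given to Vcl may come from it and that share was not tested.

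**Figure D2:**
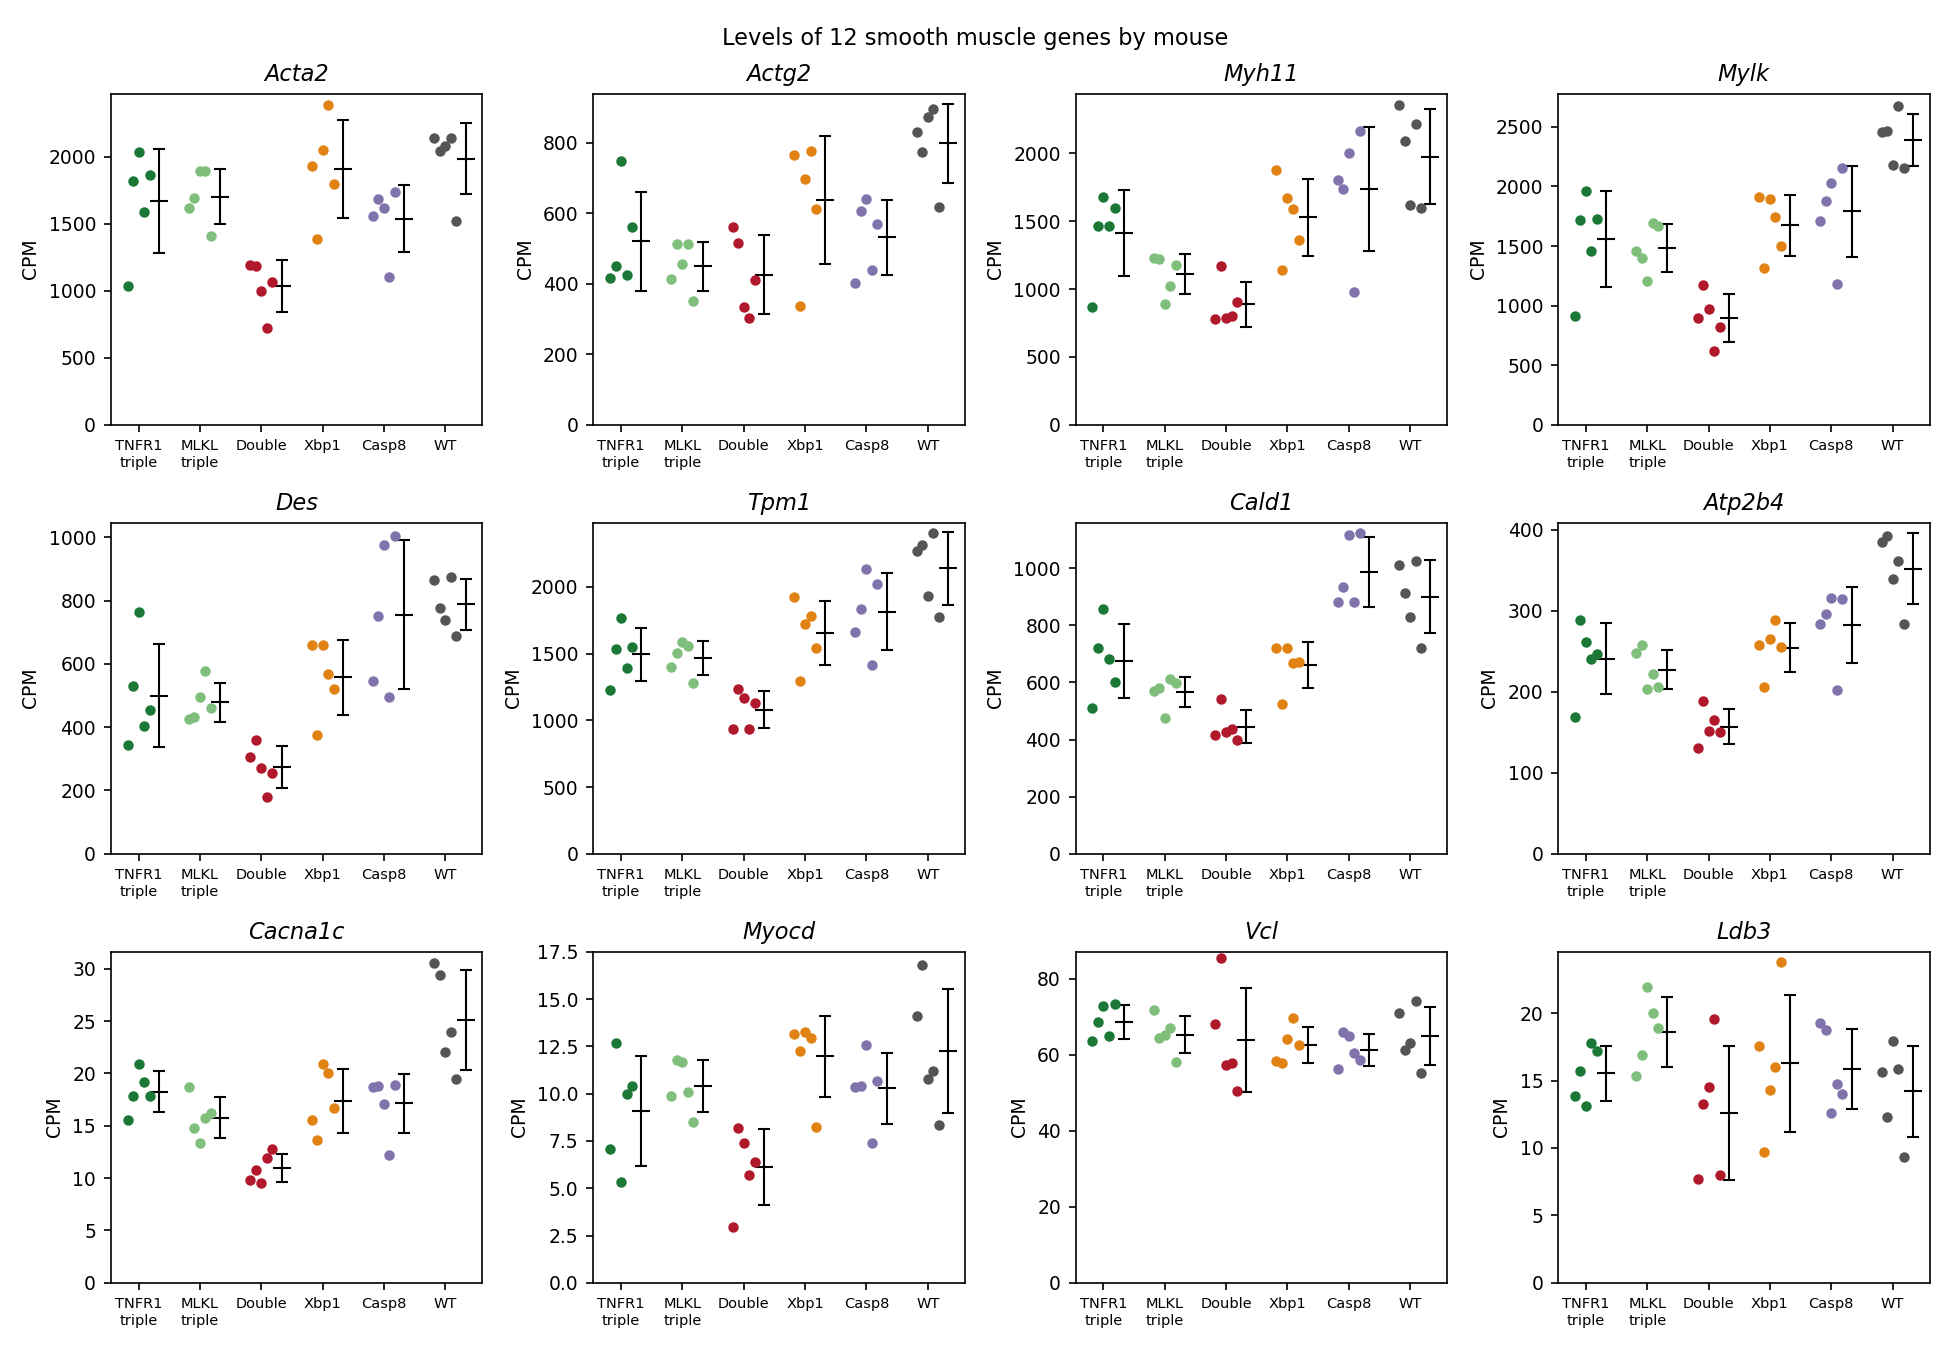
Levels (CPM) of 12 of the 32 genes in each mouse, by genotype, with the mean and SD beside the points (n = 5 mice each) and each axis starting at 0. Vcl and Ldb3 overlap between double knockout and WT, whereas the other 10 genes do not.

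Promoters of the 2 members that did not pass are shown with that of Myl9 because these were the 3 members whose promoter window held a CArG box, the element through which serum response factor acts. The windows run from 250 bases before to 50 bases after a RefSeq start site (GRCm38.p6), the box was searched on both strands, and the match, written on the gene's own strand, is in capitals.
Myl9 (chr2:156775214-156775513, plus strand, box at position -161): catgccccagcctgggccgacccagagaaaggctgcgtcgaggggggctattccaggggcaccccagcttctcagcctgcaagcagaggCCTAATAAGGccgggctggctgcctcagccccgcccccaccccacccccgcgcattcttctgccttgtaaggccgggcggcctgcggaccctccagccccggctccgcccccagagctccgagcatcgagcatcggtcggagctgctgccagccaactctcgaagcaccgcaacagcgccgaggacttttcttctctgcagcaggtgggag
Vcl (chr14:20929148-20929447, plus strand, box at position -227): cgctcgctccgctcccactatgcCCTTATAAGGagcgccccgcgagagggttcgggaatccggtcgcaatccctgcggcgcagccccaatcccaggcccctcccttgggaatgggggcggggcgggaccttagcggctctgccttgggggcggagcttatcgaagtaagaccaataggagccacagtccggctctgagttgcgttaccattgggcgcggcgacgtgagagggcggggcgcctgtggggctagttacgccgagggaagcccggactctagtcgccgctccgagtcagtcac
Ldb3 (chr14:34588632-34588931, minus strand, box at position -35): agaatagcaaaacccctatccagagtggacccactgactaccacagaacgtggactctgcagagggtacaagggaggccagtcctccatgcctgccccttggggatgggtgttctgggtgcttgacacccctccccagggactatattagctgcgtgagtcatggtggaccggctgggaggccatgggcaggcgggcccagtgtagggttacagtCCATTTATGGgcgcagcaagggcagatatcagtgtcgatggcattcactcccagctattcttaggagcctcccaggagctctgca
The same Ldb3 box stood at position -109 in another Ldb3 window, chr14:34588558-34588857, counted from a different start site. Of the 32 members 26 had a window, 34 windows in all, and the box stood in 3 genes, or 11.5% of them, against 1.81% of the 27025 genes with a window. Myl9 fell in the double knockout and the other two did not pass. A match is a run of letters and not a measured site, and boxes elsewhere in a gene or with other letters were not searched. Myocd, Myh11, Nexn, Itga7, Actg2 and Tagln had no window.

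Among genes of ions and calcium, Atp2b4, a pump that expels calcium through the plasma membrane (chr1:133699457-133801041), had the smallest p of the 32. Atp2b4 had 130.0, 189, 151, 165 and 149.6 CPM in double knockouts, against 385, 392, 339, 361 and 284 CPM in WT, and changed by -1.17 ± 0.13 (SE, adjusted p = 1.10e-06). Cacna1c, the pore of the L-type calcium channel that admits the calcium for contraction, had 9.81, 10.7, 9.56, 11.9 and 12.8 CPM in double knockouts, against 30.6, 29.4, 22.1, 23.997 and 19.5 CPM in WT, and changed by -1.20 ± 0.15 (SE, adjusted p = 2.90e-06). Neither gene's groups overlapped. Kcnmb1, the subunit that makes the large-conductance potassium channel sensitive to calcium in smooth muscle, changed by -1.31 ± 0.23, and junctophilin 2 (Jph2), which holds calcium stores close to the surface membrane, by -1.02 ± 0.19 (log2, SE).

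The 2 regulators fell as well. Myocd, the coactivator named above (chr11:65176561-65269989), had 2.94, 8.18, 7.37, 5.69 and 6.38 CPM in double knockouts, against 14.1, 16.8, 10.8, 11.2 and 8.32 CPM in WT. The highest double knockout was just under the lowest WT colon, and the change was -1.02 ± 0.23 (SE, adjusted p = 0.00221). Hspb6, a small heat shock protein phosphorylated during relaxation, changed by -1.22 ± 0.18 (SE, adjusted p = 2.25e-05). The same 30 genes passed in the double knockout against WT under all 22 settings and left-out libraries that were run, with Pdlim3 nearest to the threshold at an adjusted p of 0.0401.

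**Figure D3:**
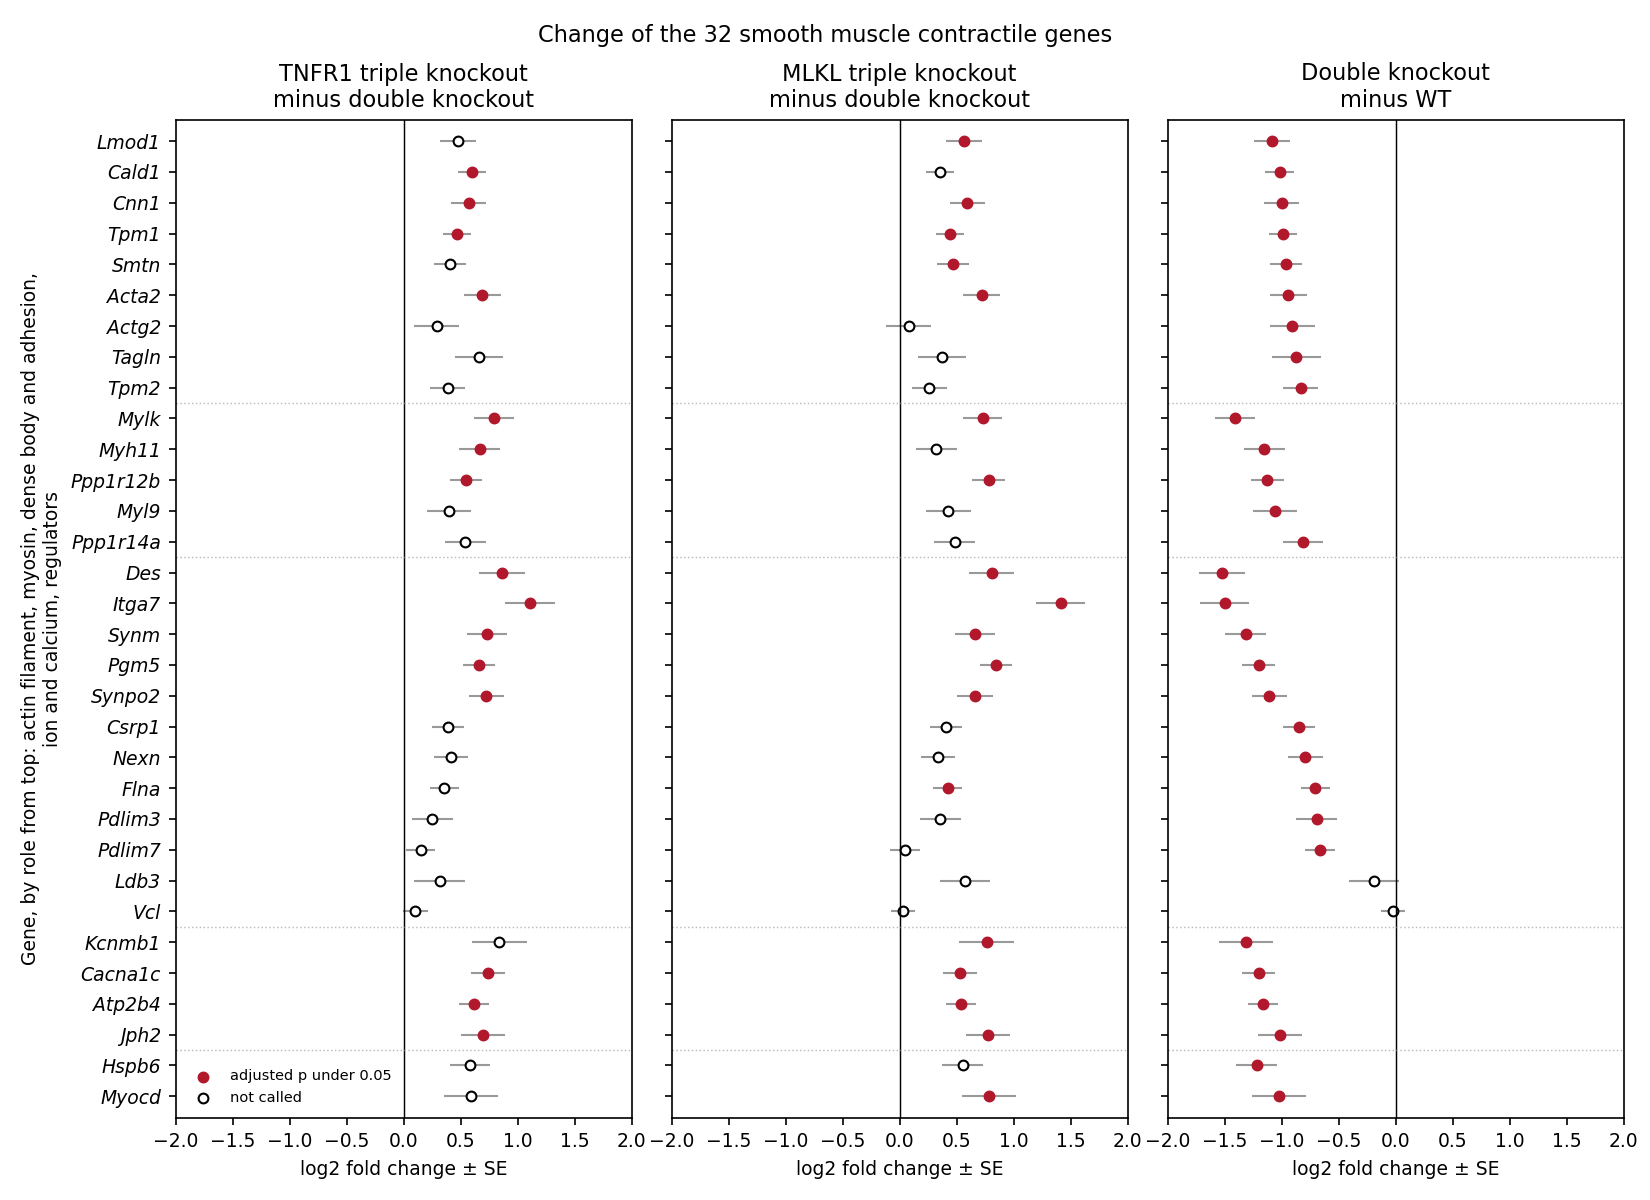
Log2 fold change (points) with its SE (bars) of each of the 32 genes, ordered by role, in the TNFR1 triple knockout minus the double knockout (left), the MLKL triple knockout minus the double knockout (middle) and the double knockout minus WT (right). Filled points passed an adjusted p of 0.05: 15 genes on the left, 18 in the middle and 30 on the right, and the 3 panels share the double knockout libraries.

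Against each single knockout, the double knockout was lower in most of the genes. Against the XBP1 single knockout 23 of 32 fell, none rose and the median was -0.69, where 3.86% of all genes were called lower. Against the Casp8 single knockout 25 of 32 fell, none rose and the median was -0.69, where 8.71% of all genes were called lower. The leading genes differed in rank: Itga7, at -1.23 ± 0.21 (SE, adjusted p = 9.41e-04), and Acta2, at -0.89 ± 0.16 (SE, adjusted p = 0.00136), had the smallest p against the XBP1 single knockout. Cald1, at -1.15 ± 0.13 (SE, adjusted p = 9.12e-07), and Lmod1, at -1.35 ± 0.16 (SE, adjusted p = 4.01e-06), had the smallest p against the Casp8 single knockout. Without single libraries the counts ran between 21 and 27 against the XBP1 single knockout and between 22 and 26 against the Casp8 single knockout.

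Alone, neither epithelial deletion moved most of the genes past the threshold. In the XBP1 single knockout against WT none of the 32 passed in edgeR, where 0.0259% of all genes were called lower, and 19 were lower with an unadjusted p under 0.05, as were 6.50% of all genes. DESeq2 called 1 of the 32 lower there, where it called 0.420% of all genes lower, and limma voom called 10, where it called 1.47% of all genes lower. The median was -0.38 and 30 of 32 estimates were below 0, among them Cacna1c at -0.53 ± 0.14 (SE, adjusted p = 0.111) and Smtn at -0.33 ± 0.14 (SE, adjusted p = 0.286). Smtn lies 1.98 Mb from Xbp1, the closest of any member to a targeted gene, and Des lies 16.5 Mb from Casp8.

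In the Casp8 single knockout against WT 3 of the 32 fell and none rose, where 0.537% of all genes were called lower, and the median was -0.31. Csrp1 had 273, 290.2, 291, 251 and 340.0 CPM in Casp8 single knockouts, against 429, 403, 445, 459.7 and 388 CPM in WT, a change of -0.56 ± 0.14 (SE, adjusted p = 0.0420). Cacna1c had 18.7, 18.8, 17.1, 12.2 and 18.9 CPM in Casp8 single knockouts, against the WT values given above, a change of -0.55 ± 0.14 (SE, adjusted p = 0.0476), and Ppp1r12b had 99.0, 97.9, 85.9, 73.8 and 101 CPM, a change of -0.55 ± 0.14 (SE, adjusted p = 0.0476). All 3 were close to the threshold, and their groups did not overlap. The 3 were chosen by a test on the same values, so that lack of overlap is not further support. Over the 32 members, 6 had all Casp8 single knockouts below all WT colons, where 2.53% of all genes did so. The groups differ in sex, with 3 females and 2 males in the Casp8 single knockout, against 1 female and 4 males in WT, and the count was 0 with sex as a term and 0 in males only. The count was also 0 without any 1 of Casp8 single knockout replicates 1 to 4 or of WT replicates 1 to 4, and 1 without WT replicate 5.

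The test of the interaction asks whether the 2 deletions together departed from the sum of their separate log2 changes. Cald1 and Lmod1 passed, both lower than that sum, where 0.666% of all genes were called lower, and the median of the 32 was -0.37. Cald1 had the double knockout values given above, 721, 524, 721, 667 and 673 CPM in XBP1 single knockouts, 883, 934, 1116, 882 and 1124 CPM in Casp8 single knockouts and the WT values given above. The Casp8 single knockouts were thus within or above the WT range and the double knockouts below all of both, and the interaction was -0.71 ± 0.18 (SE, adjusted p = 0.0448). Lmod1 had 48.6, 74.4, 48.6, 51.4 and 54.9 CPM in double knockouts, 92.3, 65.8, 86.8, 92.3 and 76.6 CPM in XBP1 single knockouts, 144, 144, 165, 93.9 and 158 CPM in Casp8 single knockouts and 135, 143, 99.3, 112 and 97.5 CPM in WT, with an interaction of -0.84 ± 0.22 (SE, adjusted p = 0.0493). Des followed at -0.96 ± 0.28 (SE, adjusted p = 0.0691), which did not pass. The count of members was 1 without the 3 libraries in doubt, 0 in males only, 5 without Casp8 single knockout replicate 4, 4 without double knockout replicate 2, and 0 or 1 without most other single libraries.

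The triple knockouts against the double knockout ask what changes when TNFR1 in the epithelium, or MLKL, is also lost. These 2 comparisons share the double knockout libraries with each other and with the double knockout against WT, so each is given by its own values. In the TNFR1 triple knockout against the double knockout 15 of 32 genes rose and none fell, where 1.02% of all genes were called higher, with a median of 0.58. In the MLKL triple knockout against the double knockout 18 of 32 rose and none fell, where 3.44% of all genes were called higher, with a median of 0.53. For 2 of the 32 genes all TNFR1 triple knockouts lay above all double knockouts, where 1.05% of all genes did so. For 13 all MLKL triple knockouts lay above all double knockouts, where 2.64% of all genes did so.

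Itga7 led both. It had 20.4, 19.2, 17.3, 25.4 and 23.1 CPM in TNFR1 triple knockouts and 30.4, 23.6, 32.1, 23.6 and 20.9 CPM in MLKL triple knockouts, all above the highest double knockout at 16.7 CPM. Its log2 fold changes were 1.11 ± 0.22 (SE, adjusted p = 0.00613) and 1.41 ± 0.21 (SE, adjusted p = 2.58e-04). Cacna1c had 15.6, 17.8, 20.9, 19.2 and 17.9 CPM in TNFR1 triple knockouts and 18.7, 14.8, 13.4, 15.7 and 16.3 CPM in MLKL triple knockouts, again all above the highest double knockout at 12.8 CPM, with changes of 0.74 ± 0.15 (SE, adjusted p = 0.00859) and 0.53 ± 0.15 (SE, adjusted p = 0.0283). Cacna1c lies 6.15 Mb from Tnfrsf1a, the gene deleted in the TNFR1 triple knockout, and the part of that linkage in its level was not tested. Pgm5 had 70.3, 129, 136, 116 and 125 CPM in TNFR1 triple knockouts and 133, 132, 138, 130.3 and 120.1 CPM in MLKL triple knockouts, with changes of 0.66 ± 0.14 (SE, adjusted p = 0.0135) and 0.84 ± 0.14 (SE, adjusted p = 4.90e-04). For Pgm5 the values of 9 of the 10 triple knockouts exceeded every double knockout, the exception being TNFR1 triple knockout replicate 1.

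Acta2 had 1038, 1818, 2040, 1589 and 1863 CPM in TNFR1 triple knockouts and 1618, 1691, 1897, 1895 and 1412 CPM in MLKL triple knockouts. It rose by 0.69 ± 0.16 (SE, adjusted p = 0.0222) in TNFR1 triple knockouts and by 0.72 ± 0.16 (SE, adjusted p = 0.00573) in MLKL triple knockouts on the log2 scale. Actg2 had 417, 450.4, 749.7, 425 and 562 CPM in TNFR1 triple knockouts and 414, 514, 456, 513 and 350.4 CPM in MLKL triple knockouts. Its differences, 0.29 ± 0.20 (SE, adjusted p = 0.459) and 0.08 ± 0.20 (SE, adjusted p = 0.863), did not pass, and no MLKL triple knockout was outside the 304 to 562 CPM spanned by double knockouts.

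Of the motor, Mylk had 909, 1720, 1963, 1459 and 1728 CPM in TNFR1 triple knockouts and 1456, 1403, 1208, 1696 and 1665 CPM in MLKL triple knockouts, and changed by 0.79 ± 0.17 (SE, adjusted p = 0.0156) and 0.73 ± 0.17 (SE, adjusted p = 0.00792). Myh11 had 869, 1464, 1677, 1462 and 1594 CPM in TNFR1 triple knockouts and 1232, 1220, 892, 1019 and 1179 CPM in MLKL triple knockouts, and passed in the TNFR1 comparison, at 0.67 ± 0.18 (SE, adjusted p = 0.0420), and not in the MLKL comparison, at 0.32 ± 0.18 (SE, adjusted p = 0.294). The direct difference of Myh11 between the triple knockouts, 0.35 ± 0.18 (SE, adjusted p = 0.605), did not pass. Ppp1r12b changed by 0.55 ± 0.14 (SE, adjusted p = 0.0391) and 0.78 ± 0.14 (SE, adjusted p = 0.00104), and Des by 0.87 ± 0.20 (SE, adjusted p = 0.0222) and 0.81 ± 0.20 (SE, adjusted p = 0.0113), in the TNFR1 and the MLKL comparison in that order. By role, genes of the actin filament rose in 4 and 5 of 9 cases, myosin and its phosphorylation in 3 and 2 of 5, dense bodies and adhesion in 5 and 6 of 12, ions and calcium in 3 and 4 of 4, and regulators in 0 and 1 of 2. The 1 regulator was Myocd, at 0.79 ± 0.24 (SE, adjusted p = 0.0377) in the MLKL comparison, against 0.59 ± 0.24 (SE, adjusted p = 0.174) in the TNFR1 comparison.

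The TNFR1 count rested on single libraries. It was 25 without TNFR1 triple knockout replicate 1, and 3, 7, 9 and 8 without replicates 2, 3, 4 and 5 of that group. It was 9, 6 and 8 without double knockout replicates 1, 4 and 5, and 0 when only the TNFR1 triple and double knockouts entered the fit. The MLKL count was 11 without double knockout replicate 5 and 11 when only the MLKL triple and double knockouts entered the fit. Sex moves with both comparisons. The TNFR1 triple knockout had 4 females and 1 male, the MLKL triple knockout 5 females, and the double knockout 1 female and 4 males. With sex as a term the counts were 21 and 22.

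Set against WT, the triple knockouts stayed lower in part of the genes. In the TNFR1 triple knockout 8 of 32 fell and none rose, where 0.957% of all genes were called lower, with a median of -0.46. These 8 were Atp2b4, at -0.55 ± 0.13 (SE, adjusted p = 0.0243), Tpm1, at -0.52 ± 0.12 (SE, adjusted p = 0.0244), Ppp1r12b, Smtn, Pdlim7, Pgm5, Lmod1 and Hspb6. In the MLKL triple knockout 8 of 32 fell and none rose, where 0.511% of all genes were called lower, with a median of -0.50. These 8 were Cald1, at -0.67 ± 0.12 (SE, adjusted p = 0.00947), Atp2b4, at -0.63 ± 0.13 (SE, adjusted p = 0.0186), Pdlim7, Cacna1c, Myh11, Tpm1, Actg2 and Mylk. In 19 of the 32 all MLKL triple knockouts lay below all WT colons, where 2.50% of all genes did so, and in 7 all TNFR1 triple knockouts did, where 2.43% of all genes did so. The 2 lists share the WT libraries.

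Sex moves with these 2 comparisons, since 9 of the 10 triple knockouts were female and 4 of 5 WT mice male, and with sex as a term both counts were 0. Of single libraries, the TNFR1 count was 15 without TNFR1 triple knockout replicate 3, 5 without replicate 5, 0 without replicate 1 or 4, 0 without WT replicate 1 or 2, and 1 without WT replicate 4. The MLKL count was 5, 4, 0, 5 and 5 without MLKL triple knockout replicates 1 to 5, 1 without WT replicate 1 or 2, and 3 without WT replicate 4. Between the TNFR1 and the MLKL triple knockout none of the 32 passed in edgeR, DESeq2 or limma voom, where 0.168% of all genes were called lower and 0.0906% higher in edgeR. None had an unadjusted p under 0.05 either, and the estimates ran between -0.30 for Itga7 and 0.35 for Myh11.

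The 2 actins did not keep their ratio across genotypes. The log2 ratio of Actg2 to Acta2 was -1.97, -1.72, -2.06, -1.88 and -2.01 in MLKL triple knockouts and -1.09, -1.20, -1.57, -1.25 and -1.38 in double knockouts, without overlap. It lay between -2.01 and -1.32 in TNFR1 triple knockouts, between -2.05 and -1.33 in XBP1 single knockouts and between -1.96 and -1.33 in Casp8 single knockouts, against -1.41 to -1.25 in WT. Over all 30 libraries, where sex and genotype are mixed unevenly, the ratio was between -2.06 and -1.25 in 17 females, with a median of -1.73, and between -1.62 and -1.09 in 13 males, with a median of -1.36. Within genotypes the sexes did not keep 1 order. Females were lower in TNFR1 triple knockouts (median -1.81 of 4, against -1.44 in 1 male), double knockouts (-1.57 in 1, against a median of -1.23 in 4 males) and XBP1 single knockouts (median -1.56 of 3, against -1.48 in 2 males). They were higher in Casp8 single knockouts (median -1.33 of 3, against -1.54 in 2 males) and in WT (-1.25 in 1, against a median of -1.33 in 4 males). The part of sex, and of the way reads shared by the 2 genes were divided, was not tested.

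**Figure D4:**
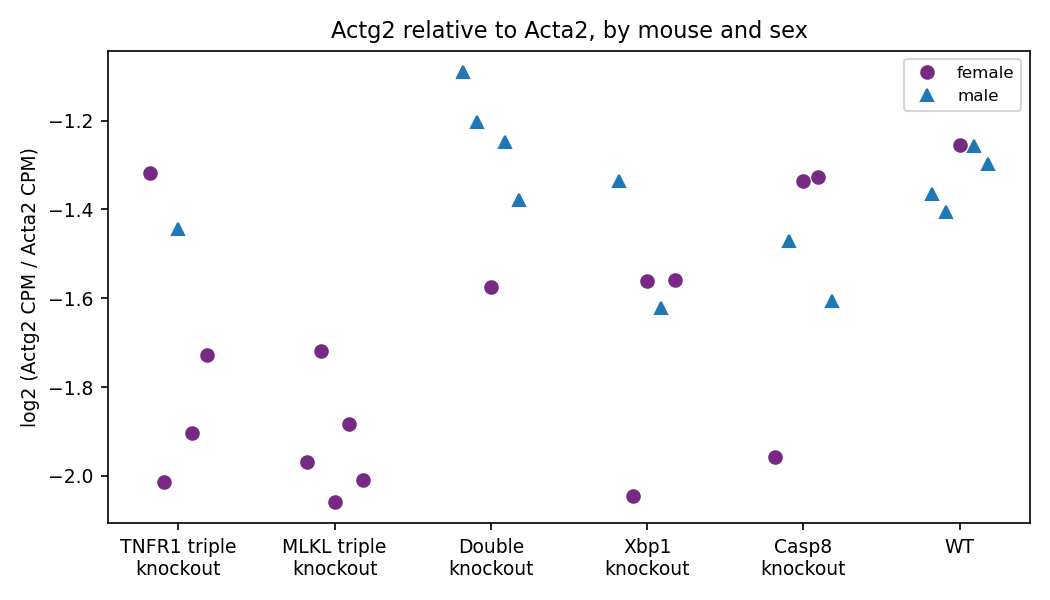
Log2 ratio of Actg2 to Acta2 (CPM over CPM) in each mouse, by genotype, with females as circles and males as triangles. MLKL triple knockouts, all female, lie between -2.06 and -1.72, below the double knockouts, between -1.57 and -1.09.

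Across the 30 libraries most of the 32 genes went up and down together. The median Pearson correlation over the 496 pairs of members was 0.752, on log2 CPM. Each member's correlation with the sum of the others was highest for Mylk, at 0.959, and lowest for Ldb3, at 0.199, and Vcl, at 0.286. Myocd stood at 0.664 and Itga7 at 0.680. After each group's mean was subtracted the median member still stood at 0.799, with Pgm5 at 0.935, Tpm2 at 0.945, Itga7 at 0.149 and Ldb3 at 0.0954. These libraries share the tissue mixture, the depth and the genotype effects, so the values are descriptions.

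Genes outside the list that act on smooth muscle did not all move alike in the double knockout against WT, where 10.2% of all genes were called lower and 11.1% higher. Of 8 genes of relaxation by nitric oxide and cyclic GMP 7 fell, with a median of -0.77. They were led by Mrvi1, a target of the cyclic GMP kinase on calcium stores, at -1.14 ± 0.16 (SE, adjusted p = 1.47e-05), Gucy1a1, a subunit of the nitric oxide receptor, at -1.15 ± 0.19 (SE, adjusted p = 1.06e-04), phospholamban (Pln), which inhibits the calcium pump of the store, at -1.64 ± 0.30 (SE, adjusted p = 2.73e-04), and Gucy1b1, the partner of Gucy1a1, at -0.75 ± 0.17 (SE, adjusted p = 0.00239). Of 12 receptors and genes of calcium release 6 fell and 2 rose, with a median of -0.69. Chrm3, the muscarinic receptor for acetylcholine that triggers contraction, stood at 2.97 to 9.21 CPM in double knockouts, against 14.9 to 18.99 CPM in WT, and changed by -1.87 ± 0.24 (SE, adjusted p = 5.56e-06). Itpr1 changed by -0.74 ± 0.10 (SE, adjusted p = 1.41e-05) and Ryr2 by -1.25 ± 0.23 (SE, adjusted p = 2.28e-04), both calcium release channels. The 2 that rose, named here after their values were seen, were Ednra, an endothelin receptor, at 0.63 ± 0.19 (SE, adjusted p = 0.0194), and Atp2a2, the store's calcium pump, at 0.25 ± 0.09 (SE, adjusted p = 0.0409).

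Of 26 other genes of smooth muscle 14 fell and 1 rose, with a median of -0.46, led by Cavin1, a coat protein of caveolae, at -1.005 ± 0.13 (SE, adjusted p = 4.75e-06), and Aoc3, an amine oxidase, at -1.22 ± 0.16 (SE, adjusted p = 5.56e-06). The 1 that rose was Zyx, an adhesion protein made in many cell types, at 0.34 ± 0.11 (SE, adjusted p = 0.0331), named after its value was seen.

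Markers of other cell types also moved between the double knockout and WT, to be read against the same 10.2% of all genes called lower and 11.1% called higher. Summed levels are over every listed gene, measured in the test or not. Of 10 fibroblast genes 7 fell, with a median of -0.63 and a summed level of 1727 to 2563 CPM in double knockouts, against 2501 to 3397 CPM in WT. Of 9 measured genes of enteric neurons and glia 4 fell, led by S100b, at -1.74 ± 0.30 (SE, adjusted p = 1.36e-04), with a summed level over the 10 listed of 56.0 to 72.7 CPM in double knockouts, against 94.6 to 120.8 CPM in WT. Of 6 measured genes of pericytes and vascular smooth muscle 3 fell, with a summed level over the 8 listed of 172 to 221 CPM in double knockouts, against 230.0 to 300.2 CPM in WT. Of 8 endothelial genes 1 fell, Lyve1, at -0.99 ± 0.25 (SE, adjusted p = 0.00464), a share near that of all genes, and of 3 genes of interstitial cells of Cajal, the pacemakers of gut muscle, none passed, with Kit at -0.36 ± 0.16 (SE, adjusted p = 0.0952) and 2 of them under an unadjusted p of 0.05. Of 3 measured genes of mesothelium and fat none passed, and none was under an unadjusted p of 0.05.

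Of 12 measured leukocyte genes 9 rose in the double knockout, with a median of 3.02 and a summed level over the 14 listed of 2307 to 11240 CPM in double knockouts, against 469.8 to 1139 CPM in WT. Of 10 epithelial genes 6 rose and 1 fell, with a summed level of 10250 to 13350 CPM in double knockouts, against 9108 to 10380 CPM in WT. The leukocyte sum was 1701 to 6877 CPM in TNFR1 triple knockouts, the highest in replicate 1, and 918 to 4075 CPM in MLKL triple knockouts. The part of these cell types in the fall of the 32 genes was not tested. Of 10 genes of striated muscle 6 were measured and 2 fell, Ckm, at -1.42 ± 0.24 (SE, adjusted p = 9.10e-05), and Actc1, at -2.30 ± 0.42 (SE, adjusted p = 2.56e-04), while Ckm stood at 4.45 to 8.18 CPM in double knockouts, against 14.9 to 19.2 CPM in WT. Acta1 was at 5.69 to 21.5 CPM in double knockouts and 4.68 to 6.90 CPM in WT, and Tnnt3, Tnni2, Mylpf, Myh2 and Actc1 at 0 to 6.70 CPM in double knockouts and 0.711 to 5.69 CPM in WT. Myh1, Myh4 and Mb were at 0 to 0.495 CPM in double knockouts and 0 to 0.220 CPM in WT. The part of striated muscle in the levels of the 32 genes was not tested.

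**Figure D5:**
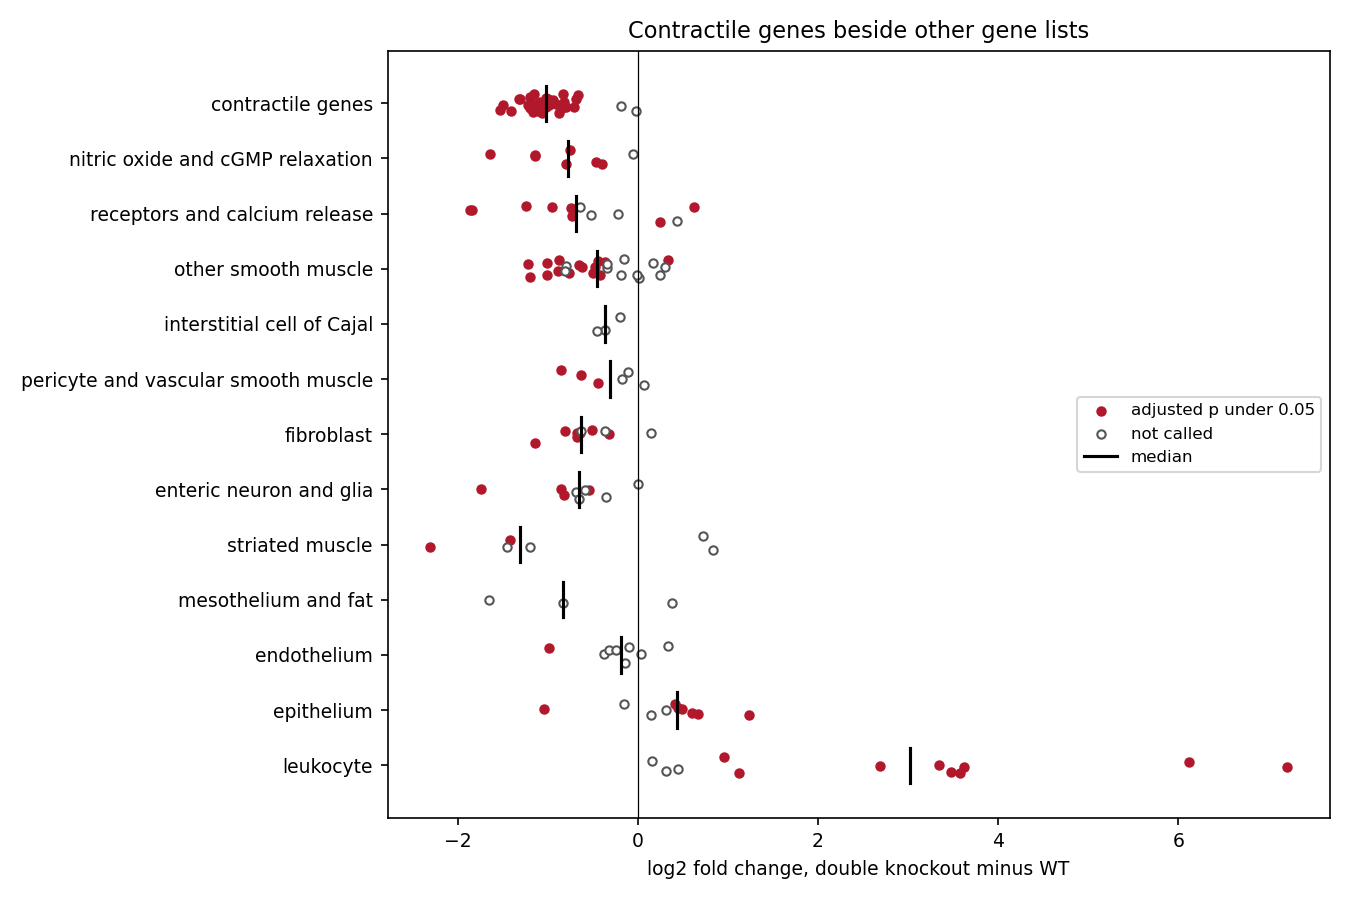
Log2 fold change in the double knockout minus WT of the 32 contractile genes (top row) and of the measured genes of 12 other lists, 1 point per gene, filled where the adjusted p was under 0.05, with a bar at each list's median. The contractile genes have a median of -1.02, fibroblast genes -0.63 and leukocyte genes 3.02.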

How the data were processed

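Total RNA of each mouse, 2 µg with an integrity number above 7, was made into Lexogen QuantSeq forward libraries, per the labels' protocols. The authors deposited 1 table of estimated counts by Ensembl identifier, in which 11.2% of values above 0 were not whole. The tools named per the submitters' processing notes were featureCounts 2.01, Subread, cutadapt 3.2 and R 4.0.0, with GRCm38 (mm10) as the build. Aligner settings, strandedness, annotation release and molecular identifiers were not stated, and PCR copies may be among the reads. The kit reads transcript ends, so no length correction was applied and levels are compared within a gene.

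Estimated counts were rounded to whole numbers, and 92 spike-in rows with 0 reads were left out. The 15458 genes kept by filterByExpr were fitted over the 30 libraries together, 1 coefficient for each genotype, with the quasi-likelihood F test of edgeR 4.0.16 in R 4.3.3 after TMM scaling. Adjustment by Benjamini-Hochberg ran over all genes within each of 11 comparisons, with a threshold of 0.05. The SE is the log2 fold change divided by the square root of F. Correlations used log2(CPM + 1). The common biological coefficient of variation was 0.186, and replicates differed by at least 3.25 times Poisson noise, so each mouse counted once. The members, the other lists and the named genes (5 fixed markers, the 8 members of smallest p in the double knockout against WT, up to 4 in each other comparison, members within 20 Mb of a targeted gene, and up to 4 members of each other list) were chosen with earlier results of these data known. Alternatives were DESeq2 1.42.0 and its size factors, limma 3.58.1 voom with quality weights, no filter, a stricter filter (5 CPM in 5 libraries), a fit of only the compared groups, TMM without the members, immunoglobulin segments and mitochondrial genes, the replicate number as a block, sex as a term, males only, leaving out the 3 libraries in doubt, and each library left out in turn. A further gene list is not reported here.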

Additional observations from a re-analysis of the deposited data

Results flagged for a closer look

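Of 198 sets of 5 values examined (the 32 genes and their sum in 6 genotypes), 19 had 1 mouse far from the other 4, by a gap of more than 0.71 of the whole range, which chance gives in about 1 set of 20. The genes counted below are those of these 19 sets and not all in which a mouse was lowest or highest. Casp8 single knockout replicate 4 was lowest of its group in 5 of the 19: Acta2 at 1103 CPM, Smtn at 190.8 CPM, Synm at 300.7 CPM, Cacna1c at 12.2 CPM and Atp2b4 at 201.5 CPM. TNFR1 triple knockout replicate 1 was lowest in 3 of the 19: Myh11 at 869 CPM, Smtn at 152.7 CPM and Ppp1r14a at 24.3 CPM. Double knockout replicate 2 was highest in 4 of the 19: Cald1 at 544 CPM, Lmod1 at 74.4 CPM, Synm at 340.1 CPM and Jph2 at 23.8 CPM. XBP1 single knockout replicate 2, whose Casp8 level was below that of every Casp8 single knockout, was lowest in Cald1 at 524 CPM and in Pdlim3 at 81.1 CPM, and replicate 5 of that group was lowest in Myocd at 8.23 CPM. WT replicate 5 was lowest in Acta2 at 1518 CPM and in Jph2 at 30.7 CPM. In MLKL triple knockouts replicate 5 was lowest in Flna at 568 CPM and replicate 3 in Hspb6 at 28.7 CPM. The sum of the 32 genes was not among the 19 sets. In that sum Casp8 single knockout replicate 4, TNFR1 triple knockout replicate 1 and XBP1 single knockout replicate 2 were also lowest of their groups. Double knockout replicate 2 was the highest of its group there.

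By the interaction term of the edgeR fit, the log2 change with the Xbp1 deletion was lower in colons that also carry the epithelial Casp8 deletion than in those that do not for Cald1, by an estimate of -0.71, and for Lmod1, by an estimate of -0.84. Neither passed with the replicate number as a block or in males only.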

How the results depend on the processing

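In the double knockout against WT the count of 30 genes was the same in every setting, left-out libraries included (30 to 30), and no gene's direction reversed past a threshold in any comparison. Other counts moved by more than 1.5 times. In the TNFR1 triple knockout against WT 8 genes passed, but 13 with no filter, 15 with DESeq2, 19 with limma voom, 4 in the fit of only those groups, 0 with sex as a term and 13 without the 3 libraries in doubt. In the MLKL triple knockout against WT 8 passed, but 13 with DESeq2, 16 with limma voom, 17 in the fit of only those groups and 0 with sex as a term. In the XBP1 single knockout against WT none passed, but 1 with DESeq2, 10 with limma voom and 5 in the fit of only those groups. In the Casp8 single knockout against WT 3 passed, but 6 with limma voom, 6 in the fit of only those groups, 5 without the libraries in doubt, and 0 with sex as a term or in males. For the interaction 2 passed, but 5 with DESeq2, 5 with limma voom, 1 in the fit of only those groups, 1 without the libraries in doubt and 0 in males. Against the double knockout, the fit of only the compared groups gave 0 genes in the TNFR1 and 11 in the MLKL triple knockout. The share of all genes called also moves with the setting. In the XBP1 single knockout against WT 0.0259% were called lower in edgeR, 0.420% in DESeq2 and 1.47% in limma voom. For the other comparisons that share is not given by setting. A larger count of members there cannot be told from more calls over all genes. The cause was not tested.

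Replicate numbers were not treated as pairs in the main fit, since not every same-numbered pair had a correlation over 0.1. Those correlations, of deviations from group means, ran between -0.183 and 0.247. They were not set against differently numbered pairs and cannot exclude a pairing. With the replicate number as a block 0 genes passed in the Casp8 single knockout against WT and 0 in the interaction, and the double knockout against WT kept 30. Without single libraries the counts ran between 0 and 15 in the TNFR1 triple knockout against WT, 0 and 8 in the MLKL triple knockout against WT, 3 and 25 in the TNFR1 and 11 and 20 in the MLKL triple knockout against the double knockout, 21 and 27 in the double against the XBP1 single and 22 and 26 against the Casp8 single knockout, 0 and 4 in the Casp8 single knockout against WT and 0 and 5 in the interaction; they were 0 throughout in the XBP1 single knockout against WT and between the triple knockouts. Fits in males only could not be run for the triple knockouts, which have 1 male. Rare members such as Myocd and Kcnmb1 are limited by their reads.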

Other observations

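The other lists of smooth muscle genes were also read in the triple knockouts against the double knockout, which share the double knockout libraries. Of 8 genes of relaxation by nitric oxide and cyclic GMP, 2 rose in the TNFR1 and 3 in the MLKL triple knockout and none fell, with medians of 0.45 and 0.41, where 1.02% of all genes were called higher in the TNFR1 and 3.44% in the MLKL triple knockout. Of 12 receptors and genes of calcium release, 1 rose and none fell in the TNFR1 triple knockout, with a median of 0.36. In the MLKL triple knockout 3 of the 12 rose and 1 fell, with a median of 0.39. The share of all genes called lower there is not given, so nothing is read from the 1 fall. Of 26 other smooth muscle genes, 2 rose in the TNFR1 and 6 in the MLKL triple knockout and none fell, with medians of 0.23 in each.

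Several members share part or all of their last 1000 bases with a gene on the other strand. Partners are given as values because the strand setting is not stated. In the double knockout and WT, Gm48529, over 507 bases of Tagln, averaged 84.0 and 184.0 CPM, and Pcsk7, over 108 bases of Tagln, 45.04 and 73.35 CPM. Gm21691 beside Mylk averaged 6.82 and 19.3 CPM. Syt2 beside Ppp1r12b averaged 2.80 and 6.79 CPM in the double knockout and WT, and Ttc23 beside Synm averaged 7.52 and 10.7 CPM.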
